A study of Mus musculus with 2 samples.

Results

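Collagen-producing cells that carried transcripts of Sfrp2, Fmod, Ogn, Pi16 or Clec3b were examined in single cells from the retinal pigment epithelium (RPE) and choroid of the mouse eye. Of 3544 barcodes with at least 1000 UMIs (unique molecular identifiers, 1 per captured RNA molecule) and at least 200 genes, 124 met the rule for these cells. The rule asked for at least 3 UMIs summed over the 5 markers, at least 2 UMIs of Col1a1 and Col1a2 together, no Ptprc (the leukocyte antigen CD45) and at most 1 UMI of the endothelial genes Plvap and Cldn5. The members were thus chosen by measured UMIs of the 5 markers, the collagen I genes and the excluding genes, and their values below are a description only. The 124 barcodes are called members here.

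The study compared eyes with and without Tsc1 in the RPE. Mice of the Tsc1 flox library carried the conditional allele Tsc1tm1Djk/J and no Cre. Mice of the Tsc1 RPE KO library carried the same allele and the Best-Cre transgene, which the labels call RPE-specific, so that fibroblasts are not the labelled target. Each library pooled 1 male and 1 female mouse at 10 weeks of age, from which the neural retina had been taken away before enzymatic digestion of the eye cup and sorting of live cells. With 1 library per genotype no difference between genotypes has a replicate check, no p-value is given, and all intervals are exact 95% intervals that cover counting error only.

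The sclera is the collagen-rich outer wall of the eye, and it borders the choroid, the vascular layer that supplies the outer retina. Its fibroblasts build fibrils of collagen I, whose spacing and diameter are set in part by small leucine-rich proteoglycans such as fibromodulin (Fmod), osteoglycin (Ogn), lumican, decorin and keratocan. Pi16 and Clec3b are known in many mouse tissues from fibroblasts of adventitia and fascia, and Sfrp2 encodes a secreted modulator of Wnt signalling. Extraocular muscles insert into the sclera by tendons, whose fibroblasts are marked by tenomodulin (Tnmd) in the mouse.

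The members were 76 of 1589 barcodes in Tsc1 flox (4.78%, interval 3.79 to 5.95%), against 48 of 1955 in Tsc1 RPE KO (2.46%, 1.82 to 3.24%). As a share of all barcodes that passed the collagen I and excluding limits, they were 29.9% (24.4 to 36.0%) of 254 and 27.4% (21 to 34.7%) of 175. Such shares can also depend on how cells survived digestion and sorting and on the depth limit. Members held 390016 and 272940 UMIs in all, with medians of 4972.5 and 5274.5 UMIs and 2225.5 and 2443 genes per barcode. Scrublet marked none of them as a doublet, and none carried a barcode found in both libraries above the depth limits.

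All members carried fibroblast markers, while most lacked the Sfrp2 and Fmod transcripts of the working name, scleral fibroblasts. Fibroblast markers outside the rule (Pdgfra, Dcn, Lum, Col3a1, Col6a1, Mmp2, Serpinf1 and Dpt) held 10040 UMIs in Tsc1 flox against 5961 in Tsc1 RPE KO, and every member had some. Dcn, which encodes the proteoglycan decorin, was found in 76 of 76 and 47 of 48 members. Epithelial markers had 0 UMIs over all 6 genes in both libraries. Schwann cell, melanocyte, RPE, rod and skeletal muscle markers held between 1 and 14 UMIs per list and library. Leukocyte markers held 30 and 29 UMIs, endothelial markers 106 and 67, erythroid markers 121 and 30, cartilage and bone markers 71 and 65, and pial and dural markers 185 and 118. Pericyte and smooth muscle markers held 477 and 285 UMIs, of which single barcodes held up to 119 and 78, and 12 and 8 members had at least 10. The part of these transcripts in the results was not tested, except that genotype ratios without the pericyte-rich or leukocyte-marked barcodes are given.

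Most members had neither Sfrp2 nor Fmod. Sfrp2 (ENSMUSG00000027996, chromosome 3, 83766321 to 83774316, plus strand, mm10) was found in 24 of 76 members of Tsc1 flox and 13 of 48 of Tsc1 RPE KO. Fmod (ENSMUSG00000041559, chromosome 1, 134037254 to 134048277, plus strand) was found in 21 and 12. Ogn (ENSMUSG00000021390, chromosome 13, 49608046 to 49624501, plus strand) was found in 61 and 44, and Pi16 (ENSMUSG00000024011, chromosome 17, 29317680 to 29330593, plus strand) in 53 and 35. Clec3b, which encodes the plasminogen-binding protein tetranectin (ENSMUSG00000025784, chromosome 9, 123150946 to 123157432, plus strand), was found in 23 and 21. The cells were thus mostly Ogn and Pi16 cells by detection, and they are called by their rule below rather than scleral fibroblasts.

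As a measure of background, B cell barcodes, which should lack these genes, were counted at median depths of 3904 and 3886.5 UMIs. Of 427 such barcodes in Tsc1 flox, with 336 in Tsc1 RPE KO, Pi16 was found in 2 and 6, Ogn in 0 and 1, Fmod in 1 and 2, Sfrp2 in 2 and 1, and Clec3b in 0 and 0. After every barcode was thinned to 1000 UMIs, Sfrp2 was left in 17 of 76 and 10 of 48 members, Fmod in 14 and 7, Ogn in 41 and 35, Pi16 in 32 and 26, and Clec3b in 11 and 15. Detection in members was therefore well above that in B cells in both libraries, as the rule itself demands of the sum over the 5 markers.

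The 5 markers were spread very unevenly over the members. Their sum was 3 to 11 UMIs in 43 members of Tsc1 flox and 28 of Tsc1 RPE KO, and at least 12 in 33 and 20. Exactly 3 UMIs, just inside the rule, were held by 15 and 8 members, whose median of Edn3 and Pgf together was 11 and 17.5 UMIs. Just outside, 17 and 14 collagen I barcodes had a sum of 2, with Edn3 and Pgf medians of 11 and 13.5 UMIs. Only 1 of the 5 markers was found in 24 and 8 members, and all 5 in 2 and 2. Cells on both sides of the limit were thus alike in Edn3 and Pgf, which were not used by the rule.

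Edn3, which encodes the peptide endothelin 3, and Pgf, which encodes placental growth factor, divided the members. Edn3 lies on chromosome 2 (ENSMUSG00000027524, 174760619 to 174784042, plus strand) and Pgf on chromosome 12 (ENSMUSG00000004791, 85166635 to 85177790, minus strand). They were also present in most of the other collagen I cells, of which 171 of 178 in Tsc1 flox, with 117 of 127 in Tsc1 RPE KO had at least 2 UMIs of the pair. Among members, 48 of 76 (63.2%, 51.3 to 73.9%) and 27 of 48 (56.3%, 41.2 to 70.5%) had at least 2 UMIs of Edn3 and Pgf, and are called Edn3/Pgf-positive. These held just 18.2% and 12.8% of the UMIs of the 5 markers. The remaining 28 and 21 members, called Edn3/Pgf-low, had 0 or 1 such UMI and medians of 44.5 and 55 marker UMIs. This division was chosen after the values had been seen.

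**Figure D1:**
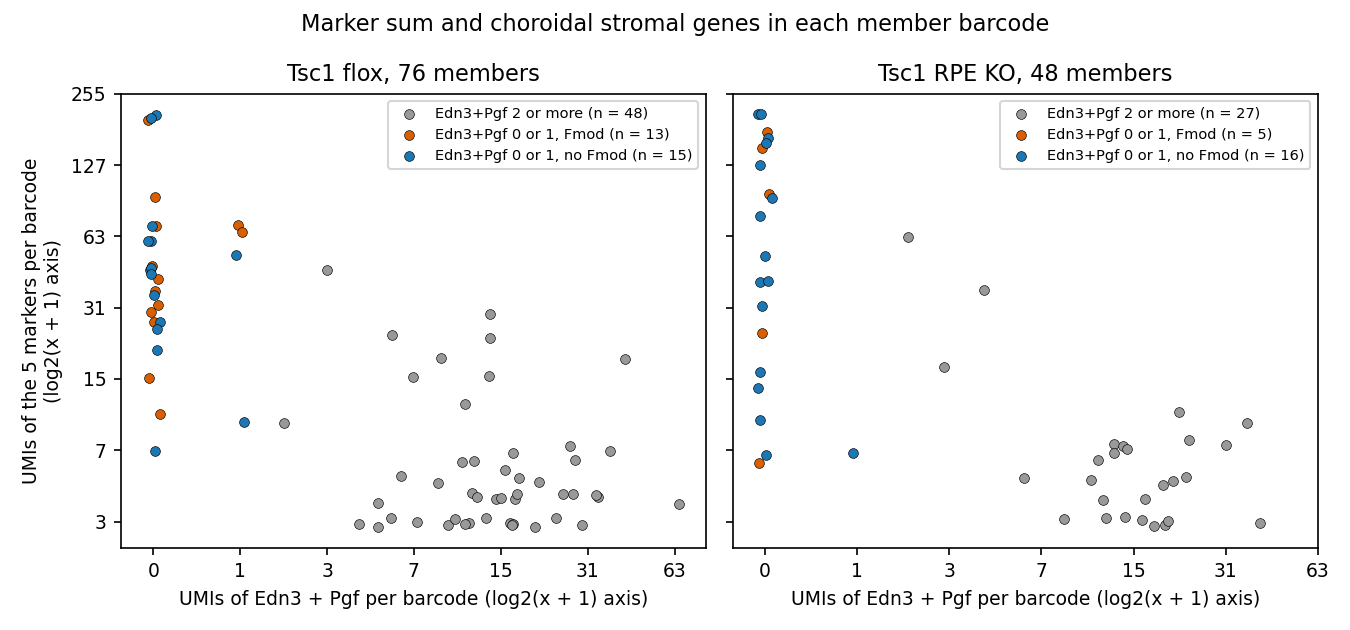
Each point is 1 member, plotted by its UMIs of Edn3 and Pgf together (horizontal, log2 of UMIs plus 1) and its UMIs of the 5 rule markers (vertical, log2 of UMIs plus 1), with a small jitter, for Tsc1 flox and Tsc1 RPE KO side by side. The 48 and 27 Edn3/Pgf-positive members mostly lie to the right with few marker UMIs, with medians of 4 and 5 and up to 47 and 64 in members near the limit, and the Edn3/Pgf-low members with Fmod (13 and 5) or without it (15 and 16) stand at the left with more.

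In Tsc1 flox, Sfrp2 had 272 of its 356 UMIs in Edn3/Pgf-low members with Fmod and 81 in those without, against 3 in Edn3/Pgf-positive members. In Tsc1 RPE KO it had 78 and 220 of 339 UMIs there, against 41. Pi16 had 54, 485 and 160 UMIs in these 3 sets of Tsc1 flox, in the same order, and 60, 481 and 68 in Tsc1 RPE KO. Clec3b had 7, 127 and 14 UMIs, and 15, 166 and 24. Ogn was found in all sets, with 212, 208 and 170 UMIs in Tsc1 flox, against 56, 361 and 100 in Tsc1 RPE KO. Pi16 and Clec3b thus lay mainly in Edn3/Pgf-low members without Fmod, while Sfrp2 lay in both kinds of Edn3/Pgf-low member.

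Over all members, Sfrp2 stood at 913 CPM (counts per 1000000 UMIs of the set) in Tsc1 flox, with 1242 CPM in Tsc1 RPE KO. In free RNA, measured in barcodes with 10 to 100 UMIs, it stood at 44.5 and 25.2 CPM. Fmod stood at 569 and 883 CPM in members against 28.3 and 26.7 CPM in free RNA. Ogn stood at 1513 and 1894 CPM against 82.5 and 73.4, Pi16 at 1792 and 2231 CPM against 131 and 127, and Clec3b at 379 and 751 CPM against 13.8 and 14.1. Since members were chosen for these transcripts, their excess over free RNA is largely set by the rule.

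Tsc1, the floxed gene (ENSMUSG00000026812, chromosome 2, 28641228 to 28691167, plus strand), had 11 UMIs in members of Tsc1 flox (28.2 CPM, 14.1 to 50.5) and 7 in those of Tsc1 RPE KO (25.6 CPM, 10.3 to 52.8). The intervals overlapped. Counts of 3' ends do not check the deletion, and these cells are not its labelled target. Its partner Tsc2 had 7 and 6 UMIs, and Ppp1r1b, which encodes DARPP32, had 0 in both.

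Against the other collagen I cells of the same library, members were richer in matrix and tendon genes and poorer in stress-response genes. A gene was measured with at least 50 UMIs over both sets and libraries, and called when it differed at least 2-fold the same way in both libraries. Genes found mainly in members reach the limit of 50 UMIs through them, so counts of higher genes per list are in part set by it. Of 6259 measured genes, 176 (2.81%) were higher and 131 (2.09%) lower in members. The median log2 ratio of all measured genes was −0.09 in Tsc1 flox, with −0.04 in Tsc1 RPE KO. Genes with 0 UMIs in a set are set against a floor of 3 UMIs over that set. A ratio against the floor is a value at that floor and not the bound of an interval. The lists used here were chosen with earlier results of these data known.

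Of 13 small leucine-rich proteoglycans measured, 10 were higher in members and none was lower, with median log2 ratios of 2.58 in Tsc1 flox, with 2.48 in Tsc1 RPE KO; Fmod and Ogn are among them by the rule. Dcn, which encodes decorin, stood at 18502 and 14139 CPM in members and at 4614 and 4861 CPM in the other cells, ratios of 4.01 (3.84 to 4.18) and 2.91 (2.76 to 3.06). Kera, which encodes keratocan (ENSMUSG00000019932, chromosome 10, 97606879 to 97613692, plus strand), stood at 162 and 205 CPM in members and had 0 UMIs in the others. Set against the floor, it was 36.7-fold and 32.5-fold higher. All of its UMIs came from 7 and 4 members. Aspn, which encodes asporin, stood at 436 and 550 CPM against 10.3 and 31.6, ratios of 42.4 (20.2 to 107) and 17.4 (10.2 to 31.9). Kera and Aspn thus reached the UMI limit for measured genes wholly or mainly through the members. The count of 10 is in part set by that limit. Lum, which encodes lumican, was not called, with 1554 and 1634 CPM against 2188 and 1458 CPM and ratios of 0.710 and 1.12.

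Of 12 tendon and ligament genes, 9 were measured and these 9 were higher, Fmod among them by the rule, with median log2 ratios of 5.51 and 5.02. The list held 938 and 501 UMIs in members against 33 and 36 in the other cells. Its genes thus reached the limit of 50 UMIs mainly through the members, and the count of 9 is largely set by that limit. Thbs4, which encodes the matrix protein thrombospondin 4 (ENSMUSG00000021702, chromosome 13, 92751590 to 92794818, minus strand), stood at 533 and 205 CPM in members against 2.94 and 37.9 CPM, ratios of 182 (49.7 to 1510) and 5.42 (3.14 to 9.79). Tnmd (ENSMUSG00000031250, chromosome X, 133850980 to 133865577, plus strand) stood at 195 and 80.6 CPM against 2.94 and 2.1, ratios of 66.4 (17.8 to 558) and 38.3 (6.19 to 1581). It was found in 10 of 76 and 5 of 48 members.

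Genes of adventitial fibroblasts were also higher, 8 of 10 measured with none lower and median log2 ratios of 2.70 and 2.83; Pi16 and Clec3b among them were part of the rule. Cd34, a surface sialomucin, stood at 541 and 619 CPM in members against 95.4 and 101 CPM, ratios of 5.67 (4.28 to 7.61) and 6.13 (4.43 to 8.63). Ly6c1, a surface protein of the Ly6 family (ENSMUSG00000079018, chromosome 15, 75044018 to 75048830, minus strand), stood at 182 and 264 CPM against 2.94 and 2.1, ratios of 62.0 (16.5 to 522) and 125 (21.8 to 5019). Ly6 genes have near-identical copies whose reads may be shared, so their counts are uncertain. Sema3c, a secreted guidance protein, had ratios of 6.59 (4.41 to 10.1) and 8.30 (4.52 to 16.5).

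Of 18 other matrix glycoproteins measured, 12 were higher and none lower, with median log2 ratios of 1.46 and 2.20. Thbs4, Cilp2 and Comp belong to this list and to the tendon and ligament list. Genes such as Fn1 and Smoc2 reached the UMI limit for measured genes mainly through the members, so the count of 12 is in part set by that limit. Fn1, which encodes fibronectin, stood at 292 and 333 CPM against 4.40 and 4.21, ratios of 66.4 (22.2 to 327) and 79.2 (21.3 to 664). Smoc2, a secreted calcium-binding matricellular protein (ENSMUSG00000023886, chromosome 17, 14279506 to 14404790, plus strand), stood at 179 and 700 CPM against 0 and 16.8 CPM. It was 40.8-fold higher against the floor in Tsc1 flox, and 41.6-fold (20.7 to 97.7) higher in Tsc1 RPE KO. Fibrillar collagens were higher in 5 of 7 measured, Col1a1 and Col1a2 by the rule among them. Col3a1 stood at 2090 and 3067 CPM against 1039 and 789 CPM, ratios of 2.01 (1.82 to 2.23) and 3.89 (3.44 to 4.40).

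Secreted regulators of matrix and growth factors followed. Igfbp6, which encodes a binding protein of insulin-like growth factors (ENSMUSG00000023046, chromosome 15, 102144362 to 102149511, plus strand), stood at 2636 and 2847 CPM against 158 and 303 CPM, ratios of 16.6 (13.6 to 20.5) and 9.39 (7.85 to 11.3). It was the only 1 of 8 measured genes in its list to be called. Among 13 Wnt modulators and receptors measured, 2 were higher, Sfrp2 by the rule and Sfrp4, a second secreted modulator. Sfrp4 stood at 164 and 557 CPM against 0 and 4.21. It was 37.3-fold higher against the floor in Tsc1 flox, and 132-fold (36.0 to 1103) higher in Tsc1 RPE KO. Adamts5, which encodes an aggrecan-cleaving protease, stood at 269 and 319 CPM against 2.94 and 0 CPM. Its ratio was 91.7 (24.8 to 767) in Tsc1 flox and 50.5 against the floor in Tsc1 RPE KO. Mmp3, which encodes the protease stromelysin 1, was 81.5-fold and 30.8-fold higher against the floor, but 1 barcode of Tsc1 RPE KO held 86.8% of its UMIs there.

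Complement genes were higher in 4 of 9 measured (C3, Cfb, Serping1 and Cd55) and lower in none, with median log2 ratios of 1.13 and 0.84. Serping1, which encodes the C1 inhibitor, stood at 1200 and 1312 CPM against 524 and 585, ratios of 2.29 (1.99 to 2.64) and 2.24 (1.91 to 2.63). Cfb, which encodes complement factor B, had ratios of 7.49 (3.22 to 20.2) and 11.8 (4.10 to 46.2).

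Immediate early and heat shock genes were lower in members in 5 of 21 measured (Junb, Egr1, Atf3, Ier2 and Nr4a1) and higher in none, with median log2 ratios of −0.59 and −1.23. Junb, which encodes a subunit of the transcription factor AP-1, stood at 1513 and 1103 CPM in members against 3632 and 4183 CPM, ratios of 0.416 (0.380 to 0.456) and 0.264 (0.233 to 0.298). In free RNA Junb stood at 2147 and 1955 CPM, above the members' level. Atf3, a stress-induced transcription factor, had ratios of 0.116 (0.0307 to 0.314) and 0.0580 (0.0117 to 0.175). Ptgs2 and Cxcl1, inflammatory genes for cyclooxygenase 2 and a neutrophil-attracting chemokine, were lower as well, at 0.214 and 0.144 for Ptgs2 and 0.262 and 0.102 for Cxcl1. Apoe, which encodes the lipid carrier apolipoprotein E, stood at 854 and 528 CPM against 2121 and 2910, ratios of 0.403 (0.356 to 0.454) and 0.181 (0.152 to 0.215).

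**Figure D2:**
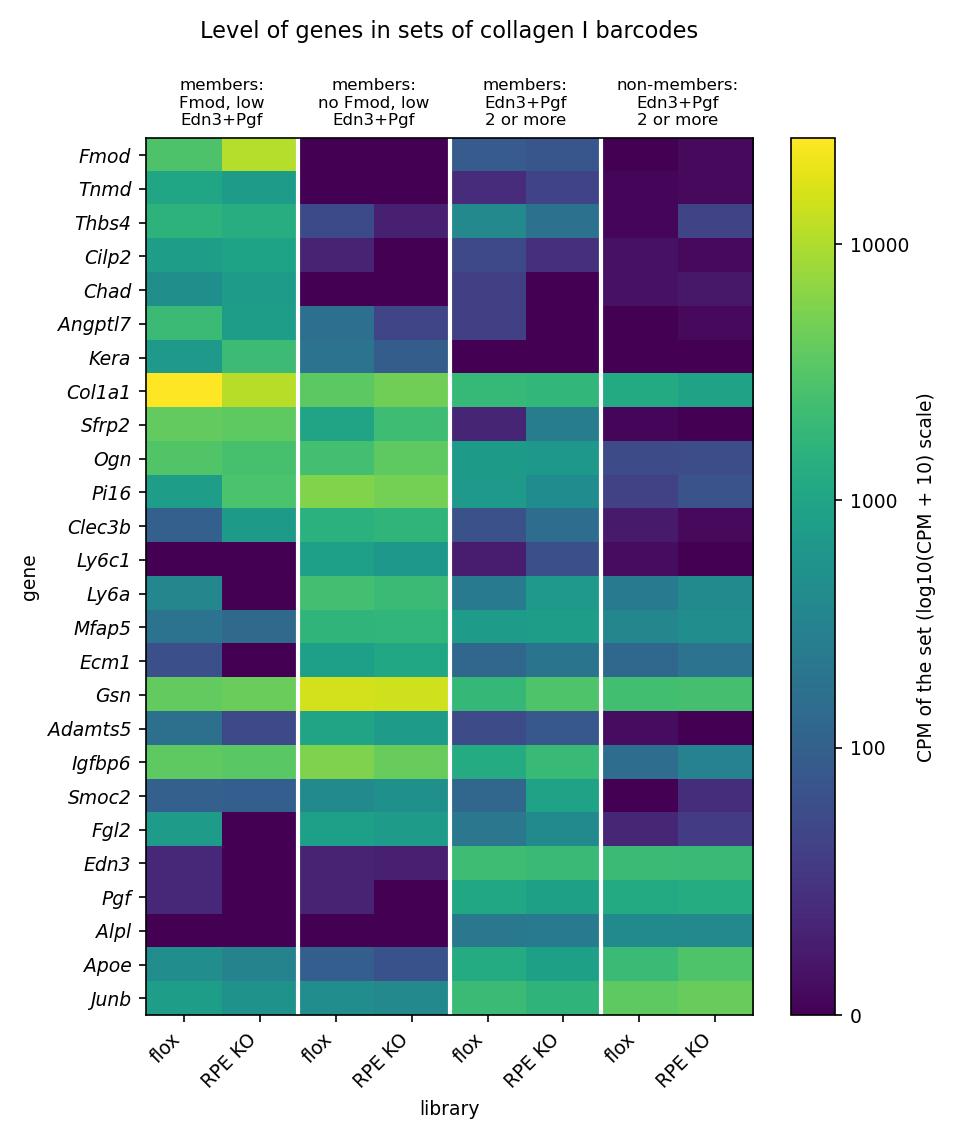
Levels of 26 genes in 4 sets of collagen I cells and both libraries, as log10 of CPM plus 10. The first 3 sets are Edn3/Pgf-low members with Fmod, Edn3/Pgf-low members without Fmod and Edn3/Pgf-positive members. The last holds the 171 and 117 other collagen I cells with at least 2 UMIs of Edn3 and Pgf, so that these 2 genes chose the sets. Tnmd, for example, had 0 UMIs in the Edn3/Pgf-low members without Fmod of both libraries.

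The Edn3/Pgf-low members alone stood further apart from the other collagen I cells. Of 5245 measured genes, 221 (4.21%) were higher and 477 (9.09%) lower, with all-gene median log2 ratios of −0.26 and −0.20. Alpl, which encodes tissue-nonspecific alkaline phosphatase (ENSMUSG00000028766, chromosome 4, 137741733 to 137796384, minus strand), had 0 UMIs in all 28 and 21 Edn3/Pgf-low members, against 417 and 391 CPM in the other cells. Set against the floor, its ratio was 0.0468 and 0.0644. Nr2f2, which encodes the orphan nuclear receptor COUP-TFII, stood at 91.1 and 67.2 CPM against 869 and 741 CPM, ratios of 0.105 (0.0570 to 0.177) and 0.0907 (0.0388 to 0.181). Apoe stood at 260 and 109 CPM, ratios of 0.123 (0.0873 to 0.168) and 0.0375 (0.0199 to 0.0644). Lsamp, which encodes a neural-type adhesion protein, had 2 and 0 UMIs in Edn3/Pgf-low members against 574 and 488 CPM in the other cells.

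In the Edn3/Pgf-low members, 13 of 21 immediate early and heat shock genes were lower and none higher, with median log2 ratios of −1.39 and −2.28. Junb stood at 625 and 420 CPM and Fos, another AP-1 subunit, at 1640 and 672 CPM against 3688 and 5219 CPM. Steap3, which encodes a ferrireductase, stood at 553 and 588 CPM against 22 and 10.5 CPM, ratios of 25.1 (14.4 to 46.9) and 55.9 (22.8 to 177). It was found in 20 of 28 and 18 of 21 Edn3/Pgf-low members. Median depth in these members was 5362 UMIs in Tsc1 flox, against 3553 in the other cells.

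The Edn3/Pgf-positive members were set against the other collagen I cells that met the same limit on Edn3 and Pgf, called Edn3 Pgf cells (171 and 117 barcodes). Edn3 stood at 2272 and 2009 CPM in the former and 2087 and 2045 CPM in the latter. Of 5510 measured genes, 59 (1.07%) were higher and 61 (1.11%) lower in Edn3/Pgf-positive members. All members against the same Edn3 Pgf cells gave 178 (2.89%) higher and 129 (2.1%) lower of 6156. Nr2f2 stood at 948 and 644 CPM against 876 and 743, ratios of 1.08 (0.923 to 1.26) and 0.866 (0.685 to 1.09).

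Tendon and adventitial genes were also found in Edn3/Pgf-positive members. The tendon and ligament list, Fmod included, summed to 770 and 423 CPM there against 41.9 and 75.4 CPM in Edn3 Pgf cells, with 1 of 2 measured genes called higher. Fmod, part of the rule, held 20 of 182 and 11 of 65 UMIs of the list in these members. Thbs4 was found in 13 of 48 and 8 of 27 of these members, at 389 and 176 CPM against 1.49 and 39.9 CPM, a ratio of 260 (45.6 to 10396) in Tsc1 flox that rests on 1 UMI in Edn3 Pgf cells, and 4.40 (2.33 to 8.48) in Tsc1 RPE KO. The adventitial list, Pi16 and Clec3b included, summed to 1781 and 2327 CPM against 722 and 958 CPM, with 4 of 7 measured genes higher and none lower. Part of this excess is set by the rule. Pi16 and Clec3b held 160 and 14 of 421 UMIs in Tsc1 flox, with 68 and 24 of 358 in Tsc1 RPE KO. Single barcodes held up to 101 and 134 UMIs of the list. With at least 5 UMIs of Edn3 and Pgf, 2 of 7 were higher.

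Several other genes were higher in Edn3/Pgf-positive members, some of them through few barcodes. S100a6, which encodes a calcium-binding protein, stood at 2238 and 2386 CPM against 797 and 843, ratios of 2.81 (2.49 to 3.17) and 2.83 (2.45 to 3.28). Col12a1, a fibril-associated collagen, stood at 288 and 293 CPM against 31.4 and 62.1, ratios of 9.17 (5.55 to 15.7) and 4.71 (2.88 to 7.84). Igfbp6 stood at 1252 and 1976 CPM against 155 and 315, but in Tsc1 RPE KO 1 barcode held 61.2% of its UMIs.

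In Tsc1 RPE KO, 3 of the Edn3/Pgf-positive members had 2 to 4 UMIs of Edn3 and Pgf and marker sums of 64, 36 and 17. With at least 5 UMIs of the pair, a limit chosen after seeing these values, 45 and 24 members remained, and 42 (0.78%) genes were higher and 61 (1.13%) lower of 5387. The ratio of Igfbp6 was then 7.23 (5.73 to 9.18) in Tsc1 flox but 2.03 (1.52 to 2.69) in Tsc1 RPE KO. Fgl2, which encodes a fibrinogen-like protein, went from 16 and 14.4 to 16.7 (8.13 to 38.6) and 0.843 (0.154 to 3.07), and Col6a3, a collagen VI chain, from 6.67 and 11 to 7.09 (3.69 to 14.3) and 0.913 (0.0945 to 4.58). Col12a1 kept ratios of 9.74 (5.90 to 16.7) and 2.87 (1.56 to 5.20), and S100a6 of 2.62 (2.31 to 2.98) and 2.0 (1.68 to 2.37).

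Within the Edn3/Pgf-low members, tendon genes were richer in the summed UMIs of those with Fmod (13 in Tsc1 flox, with 5 in Tsc1 RPE KO). Adventitial genes were richer in the sum of those without it (15 and 16), with single members as exceptions. This comparison was chosen after seeing the data, Fmod itself chose the sets, and 5 barcodes make the values of Tsc1 RPE KO coarse. Of 814 measured genes, 47 (5.77%) were higher with Fmod, Fmod itself included, and 80 (9.83%) lower; the all-gene median log2 ratios were −0.13 and −0.12.

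Tendon and ligament genes were higher with Fmod in 7 of 8 measured, Fmod among them, and lower in none. The median log2 ratios were 4.31 and 4.61. The list held 713 and 412 UMIs with Fmod, 202 and 230 of them from Fmod itself, against 43 and 24 without. Its genes thus reached the UMI limit for measured genes mainly through the set with Fmod. The count of 7 is largely set by that limit. Tnmd was found in 8 of 13 and 3 of 5 members with Fmod, at 1034 and 751 CPM, and in 0 of 15 and 0 of 16 without. Set against the floor, it was 29.0-fold and 24.5-fold higher. Thbs4 stood at 1608 and 1314 CPM with Fmod against 47.6 and 10.2 without, ratios of 33.8 (12.8 to 126) and 128 (21.2 to 5254). Thbs4 was found in 10 of 13 and 5 of 5 members with Fmod. Cilp2, of the cartilage intermediate layer proteins, stood at 775 and 939 CPM against 11.9 and 0. Its ratio was 65.1 (11.2 to 2620) in Tsc1 flox and 30.6 against the floor in Tsc1 RPE KO. Chad, which encodes the collagen-binding protein chondroadherin, had 0 UMIs without Fmod. Set against the floor, it was 13.7-fold and 24.5-fold higher with Fmod, from 3 of 13 and 2 of 5 members. Comp, cartilage oligomeric matrix protein, was the 1 measured gene of the list that was not called, at 1.90 (0.671 to 5.77) and 14.3 (6.27 to 36.8).

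The 5 Fmod members of Tsc1 RPE KO were not alike. They had 112, 59, 52, 6 and 1 UMIs of Fmod, and, in the same order, 4, 8, 4, 0 and 0 of Tnmd. The first 3 thus carried all of the Tnmd UMIs of this set. Thbs4 was present in each of the 5, with 7, 5, 5, 6 and 5 UMIs. In Tsc1 flox, a member with Fmod had 0 UMIs of Tnmd, Thbs4, Cilp2 and Chad but 22 of Pi16. Another Edn3/Pgf-low member there, without Fmod, had 40 pericyte and smooth muscle UMIs and 0 of Pi16 and Ly6c1.

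Other genes were also higher with Fmod. Angptl7, given with them here, belongs to the tendon and ligament list and is already counted there. Col11a1, a fibrillar collagen that nucleates fibrils, stood at 732 and 704 CPM against 167 and 112, ratios of 4.39 (2.40 to 8.60) and 6.26 (2.69 to 15.1). Col12a1 stood at 3619 and 939 CPM against 202 and 256, ratios of 17.9 (10.9 to 31.2) and 3.67 (1.93 to 6.88). Mylk, which encodes myosin light chain kinase, stood at 373 and 985 CPM against 23.8 and 10.2, ratios of 15.7 (3.93 to 136) and 96.4 (15.5 to 3985). Angptl7, which encodes a secreted angiopoietin-like protein (ENSMUSG00000028989, chromosome 4, 148495183 to 148500460, minus strand), stood at 2111 and 798 CPM against 167 and 40.9, but 1 barcode held 62.6% of its UMIs in the Fmod set of Tsc1 flox. The collagen I gene Col1a1, part of the rule, stood at 25833 and 11122 CPM with Fmod against 3583 and 4745 without.

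Adventitial fibroblast genes were lower with Fmod in 5 of 8 measured and higher in none, with median log2 ratios of −3.09 and −1.40. Pi16 and Clec3b, part of the rule, belong to this list. The list held 124 and 94 UMIs with Fmod against 1242 and 1181 without. Its genes thus reached the UMI limit for measured genes mainly through the set without Fmod. The count of 5 is in part set by that limit. Ly6c1 was found in 13 of 15 and 12 of 16 members without Fmod, at 821 and 644 CPM, and in 0 of 13 and 0 of 5 with it. Set against the floor its ratio was 0.0524 and 0.219. Ly6a, a near relative that marks many stromal progenitors, stood at 373 and 0 CPM with Fmod against 2488 and 2086 without. Cd34 stood at 144 and 375 CPM against 1452 and 1084, ratios of 0.0989 (0.0463 to 0.188) and 0.346 (0.146 to 0.708). No barcode with Fmod thus had Ly6c1, and 2 and 4 barcodes without Fmod lacked Ly6c1 too.

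Further genes differed between members with and without Fmod, most of those given here being lower with it. Gsn, which encodes the actin-severing protein gelsolin (ENSMUSG00000026879, chromosome 2, 35256380 to 35307892, plus strand), stood at 3877 and 4223 CPM with Fmod against 15094 and 14767 without, ratios of 0.257 (0.224 to 0.293) and 0.286 (0.229 to 0.354). Mfap5, which encodes a microfibril glycoprotein, stood at 187 and 141 CPM against 1702 and 1749, ratios of 0.110 (0.0570 to 0.194) and 0.0805 (0.0164 to 0.239). Its relative Mfap4 went the other way, at 962 and 892 CPM against 35.7 and 102, ratios of 26.9 (8.83 to 134) and 8.72 (3.86 to 21). Ccl11, which encodes the chemokine eotaxin, and Tppp3, a tubulin-binding protein, had 0 UMIs with Fmod in both libraries, against 405 and 491 CPM and 298 and 603 CPM without.

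The size of the ratio differed between the libraries for some matrix genes. Lum had a ratio of 1.12 (0.891 to 1.40) in Tsc1 flox but 0.0197 (0.000497 to 0.111) in Tsc1 RPE KO, where the Fmod set held 1 UMI. Col3a1 was lower with Fmod in both, at 0.464 (0.382 to 0.562) and 0.125 (0.0709 to 0.204).

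**Figure D3:**
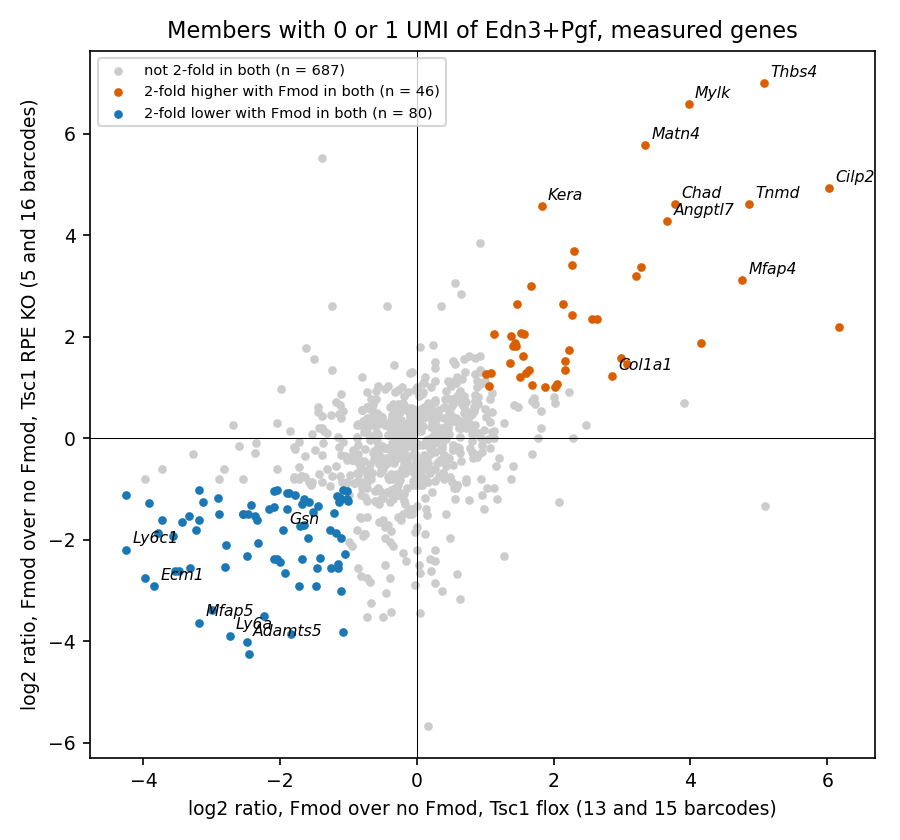
Each point is 1 measured gene in Edn3/Pgf-low members, by its log2 ratio with Fmod over without Fmod in Tsc1 flox (horizontal) and Tsc1 RPE KO (vertical); genes at 0 UMIs on 1 side are placed against the floor of 3 UMIs. Besides Fmod itself, 46 genes are at least 2-fold higher in both libraries, Tnmd and Thbs4 among them, 80 are at least 2-fold lower, Ly6c1 and Gsn among them, and 687 are neither.

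A narrower split over all members, with Fmod but no Pi16 (5 and 4 barcodes) against Pi16 but no Fmod (37 and 27), called 24 (1.74%) of 1380 measured genes higher and 78 (5.65%) lower. Both genes were found in 16 and 8 members and neither in 18 and 9. Timp3, which encodes a matrix-bound metalloprotease inhibitor, stood at 6948 and 6558 CPM with Fmod only against 2358 and 2044 with Pi16 only, ratios of 2.95 (2.46 to 3.51) and 3.21 (2.52 to 4.06). Cpxm1, which encodes a carboxypeptidase-like protein, had ratios of 14.2 (9.38 to 21.6) and 4.91 (2.09 to 10.7). Gsn was lower, at 0.200 (0.142 to 0.275) and 0.0996 (0.0529 to 0.171). Tnxb, which encodes the matrix protein tenascin X, had 0 UMIs with Fmod only, against 454 and 833 CPM.

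Between genotypes, Smoc2, Sfrp4, Dpep1 and Cdkn1a had more transcripts in the members of Tsc1 RPE KO, and the tendon genes Thbs4, Tnmd, Cilp2 and Angptl7 fewer, with exceptions by kind of member given below. Of 2496 genes with at least 50 UMIs over the members of both libraries, 43 (1.72%) were at least 2-fold higher in Tsc1 RPE KO and 27 (1.08%) at least 2-fold lower, with an all-gene median log2 ratio of 0.01. The make-up of the members differed beside this: members that were Edn3/Pgf-low with Fmod were 13 of 76 in Tsc1 flox but 5 of 48 in Tsc1 RPE KO. Its part in these ratios was not tested over replicates. Ratios within kinds of member or without the richest barcode stand beside only some of the genes described below. In the running text Ccn5, Tnmd, Comp, Aqp1 and Myoc have neither, and Chil1 and Angptl7 have no ratio within a kind of member. The plot of genotype ratios with counting intervals shows such ratios for Ccn5, Aqp1, Myoc, Chil1 and Angptl7, but not for Tnmd and Comp. For Tnmd and Angptl7, CPM values of both libraries in Edn3/Pgf-low members with Fmod are given further above.

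Smoc2 was the first ranked of the higher genes, at 179 CPM (140 to 227) in Tsc1 flox against 700 CPM (604 to 806) in Tsc1 RPE KO, with a ratio of 3.90 (2.95 to 5.20). One barcode held 48.2% of its UMIs in Tsc1 RPE KO, and the ratio was 2.32 without the top barcode of each library, 1.64 in Edn3/Pgf-low members and 0.559 in members with at least 5 UMIs of Edn3 and Pgf. Sfrp4 had a ratio of 3.39 (2.52 to 4.62), with 73.0% of its UMIs in 1 barcode of Tsc1 RPE KO and a ratio of 1.22 without the top barcodes. Both ratios thus rested in large part on 1 barcode of Tsc1 RPE KO.

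For the other higher genes the dependence on 1 barcode varied. Dpep1, which encodes a membrane dipeptidase, stood at 51.3 and 194 CPM, a ratio of 3.79 (2.23 to 6.69) that was 3.81 without the top barcodes and 4.52 in Edn3/Pgf-low members, but 0.901 in members with at least 5 UMIs of Edn3 and Pgf. Cdkn1a, which encodes the cell cycle inhibitor p21, stood at 53.8 and 202 CPM, a ratio of 3.74 (2.23 to 6.52) that was 2.77 without the top barcodes and 5.40 in Edn3/Pgf-low members, but 0.801 with at least 5 UMIs of Edn3 and Pgf. Ccn5, a matricellular protein, stood at 28.2 and 143 CPM, a ratio of 5.07 (2.54 to 11). Fbln2, which encodes the matrix protein fibulin 2, stood at 228 and 539 CPM, a ratio of 2.36 (1.80 to 3.11) that was 2.16 without the top barcodes but 0.150 in members with at least 5 UMIs of Edn3 and Pgf. Postn, which encodes periostin, stood at 69.2 and 231 CPM, a ratio of 3.33 (2.09 to 5.44). One barcode held 49.2% of its UMIs in Tsc1 RPE KO, and the ratio was 2.08 without the top barcodes. It was 8.74 in Edn3/Pgf-low members and 0.171 in Edn3/Pgf-positive ones, where it rested on few UMIs.

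Tendon and ligament genes were lower in Tsc1 RPE KO in 4 of 8 measured (Tnmd, Thbs4, Cilp2 and Angptl7) and higher in 1 (Comp), with a median log2 ratio of −0.94. Thbs4 stood at 533 CPM (463 to 611) in Tsc1 flox against 205 CPM (155 to 266) in Tsc1 RPE KO, with a ratio of 0.385 (0.281 to 0.519). It was 0.405 without the top barcodes, 0.323 in Edn3/Pgf-low and 0.451 in Edn3/Pgf-positive members. Inside the Edn3/Pgf-low members with Fmod the sum of the list was not lower, at 10238 CPM in Tsc1 flox against 19334 CPM in Tsc1 RPE KO. Of its UMIs there, 202 of 713 and 230 of 412 came from Fmod itself. In that set Thbs4 stood at 1608 and 1314 CPM and Cilp2 at 775 and 939 CPM. Tnmd and Angptl7 were lower in Tsc1 RPE KO in that set too, by the CPM values given further above. Over all members, Tnmd had 195 and 80.6 CPM, a ratio of 0.414 (0.245 to 0.672), and Comp 66.7 and 172 CPM, a ratio of 2.58 (1.57 to 4.35). Angptl7 stood at 433 and 76.9 CPM, a ratio of 0.178 (0.107 to 0.280), with 54.4% of its UMIs in 1 barcode of Tsc1 flox and a ratio of 0.204 without the top barcodes.

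Several lower genes encode other collagens and secreted proteins. Col12a1 stood at 864 and 330 CPM, a ratio of 0.382 (0.299 to 0.483). The ratio was 0.216 in Edn3/Pgf-low members, 1.02 in Edn3/Pgf-positive ones and 1.26 in Edn3/Pgf-low members without Fmod, and the difference between these ratios was not tested. Crispld2, which encodes a secreted cysteine-rich protein, stood at 949 and 429 CPM, a ratio of 0.452 (0.364 to 0.558), in 58 of 76 and 34 of 48 members, but its ratio was 1.98 in Edn3/Pgf-low members without Fmod. Chil1, which encodes a chitinase-like glycoprotein, stood at 582 and 147 CPM, a ratio of 0.252 (0.175 to 0.354), with 46.7% of its UMIs in 1 barcode of Tsc1 flox and a ratio of 0.342 without the top barcodes. Aqp1, which encodes a water channel, stood at 159 and 33.0 CPM, a ratio of 0.207 (0.0906 to 0.420). Myoc, which encodes myocilin (ENSMUSG00000026697, chromosome 1, 162639155 to 162649693, plus strand), stood at 1946 and 1099 CPM, a ratio of 0.565 (0.492 to 0.646) that did not reach 2-fold.

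The other lists are given by their counts, to be read against the 1.72% higher and 1.08% lower over all measured genes. Of 17 other matrix glycoproteins measured, 5 were higher (Tnxb, Comp, Postn, Vcan and Smoc2) and 2 lower (Thbs4 and Cilp2), with a median log2 ratio of 0.44. Fibrillar collagens had none called in either direction among 6 measured. Of 13 small leucine-rich proteoglycans measured, 1 was higher and none lower, with a median of 0.33. The 5 rule markers were all higher in Tsc1 RPE KO with a median of 0.44, and none reached 2-fold. They chose the members, so their values are a description only. The marker-rich Edn3/Pgf-low members were 28 of 76 in Tsc1 flox and 21 of 48 in Tsc1 RPE KO, and the part of this in the ratios was not tested. Among genes of the TSC complex and mTORC1, 4 were measured and none was called, with a median of 0.03. Immediate early and heat shock genes had 1 of 18 higher (Hspa1b), none lower and a median of −0.33.

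**Figure D4:**
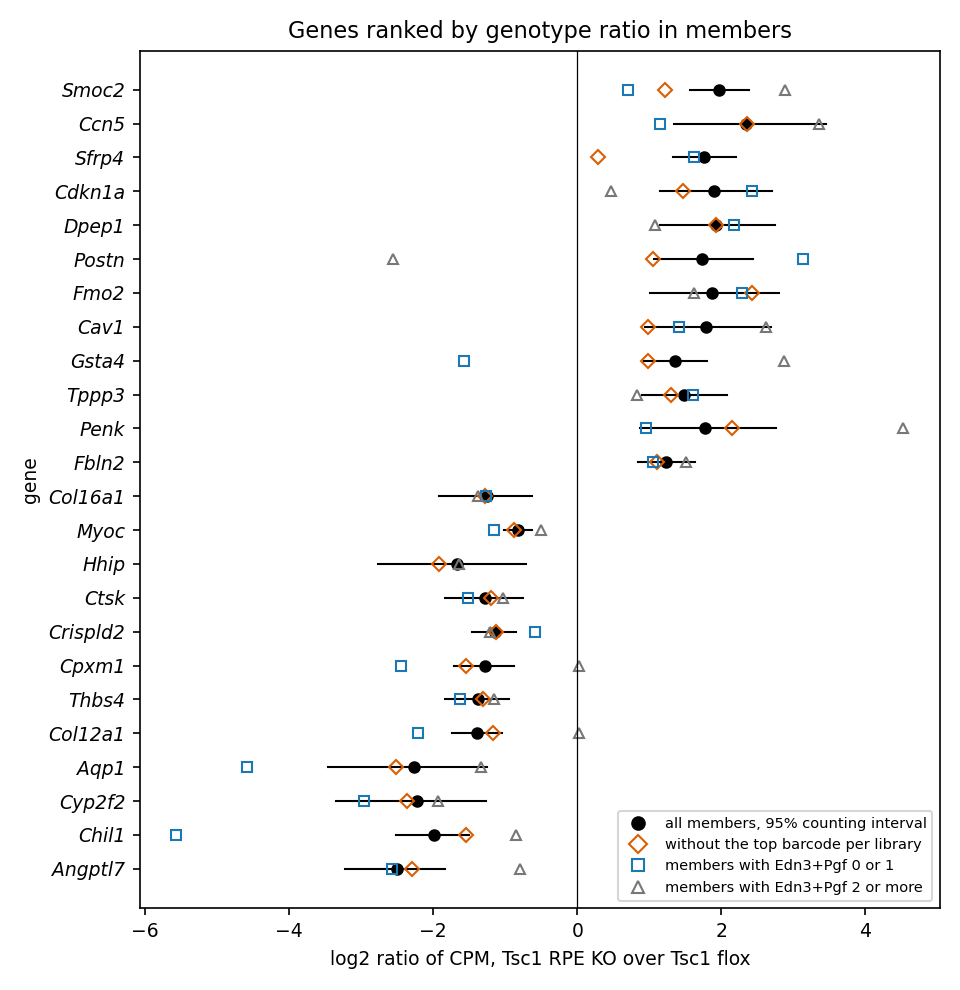
Ratios of CPM in members of Tsc1 RPE KO over Tsc1 flox, as log2 with exact 95% counting intervals, for the 12 highest and 12 lowest genes by the naming rule. Orange diamonds leave out the barcode with most UMIs of the gene in each library, blue squares are Edn3/Pgf-low and grey triangles Edn3/Pgf-positive members, some of which rest on few UMIs or on the floor of 3; Smoc2 and Sfrp4 move toward 0 without the top barcode, while Thbs4 stays below 0 in each.

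Without the members with at least 10 pericyte and smooth muscle UMIs, 1905 genes were measured. Of these, 45 were at least 2-fold higher and 40 lower in Tsc1 RPE KO. Without the members with at least 3 leukocyte marker UMIs, 40 of 2441 measured genes were higher and 32 lower. Thbs4 was then at 0.416 and 0.405, and Dpep1 at 3.74 and 3.84.

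The genotype ratios were also taken inside each kind of member. In Edn3/Pgf-low members 24 (2.95%) of 814 measured genes were higher and 34 (4.18%) lower in Tsc1 RPE KO, and in Edn3/Pgf-positive members 36 (2.52%) of 1430 were higher and 31 (2.17%) lower. With at least 5 UMIs of Edn3 and Pgf, 27 (2.23%) of 1211 measured genes were higher and 36 (2.97%) lower. In Edn3/Pgf-low members without Fmod, the 15 and 16 barcodes gave 16 (3.12%) of 512 higher and 10 (1.95%) lower. In that set Cdkn1a was at 6.59, Dpep1 at 3.28 and Sfrp4, mostly from 1 barcode, at 4.10. Gsta4, at 0.263, Col12a1, Cpxm1, at 1.22, and Crispld2 had the opposite direction to that over all members. Thbs4 had 4 UMIs in Tsc1 flox but 1 in Tsc1 RPE KO there, too few to compare.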

How the data were processed

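Single-cell suspensions of RPE and choroid were profiled as 2 droplet libraries, 1 per genotype, after sorting of live cells. The authors deposited unfiltered UMI counts for every barcode and gene. Cell Ranger 2.1.1 and mm10 are named in the submitters' processing notes, while the matrix header names Cell Ranger 4 and the barcode lists of both libraries, taken as 1 set, hold 1207754 distinct barcodes, more than the list of the 3' v2 kit named in the labels, so that the program version and kit remain unsettled. The libraries held 10771118 and 12574364 UMIs; 1589 and 1955 barcodes had at least 1000 UMIs and 200 genes.

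Counts of the chosen barcodes were summed per library and set and expressed per 1000000 UMIs of the set (CPM). Ratios have exact conditional binomial intervals, CPM exact Poisson and shares exact Clopper-Pearson intervals, at 95%. Genes with at least 50 UMIs over the sets compared were measured, and at least 2-fold counted as called; a set at 0 was given a floor of 3 UMIs. B cell barcodes had at least 3 UMIs of B cell genes. Scrublet (scanpy 1.11.5) marked 12 and 24 barcodes as doublets, 0 of them members, and none was removed. Up to 12 genes per direction were named by the interval bound nearest to a ratio of 1, with up to 6 genes per list by UMIs. Marker genes of other cell types, mitochondrial, Xist and Y-linked genes were left out of the ranks, and so were genes higher in free RNA between genotypes. Further genes stand where a list's count is small. Sets by Edn3 and Pgf, and by Fmod among members low in both, were chosen after seeing the data, and the members and lists with earlier results of these data known. Nov was matched as Ccn3, and Ccl19 and Aldoa had no match. Coordinates are from GENCODE M21, where 32235 of 32285 gene identifiers matched. The calculation was tested on simulated data. Python 3.11.15, numpy 2.4.6, scipy 1.17.1, pandas 2.3.3 and matplotlib 3.10.9 were used.

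Alternatives were other marker, depth and measurement limits, thinning to 1000 UMIs, scaling, a mean over barcodes, a 1.5-fold limit, subtraction of free RNA, a mitochondrial limit of 10%, and sets by Edn3 and Pgf, without pericyte-rich, leukocyte-marked, shared or doublet barcodes, or without the richest barcode.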

Additional observations from a re-analysis of the deposited data

Results flagged for a closer look

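Ccn1, Ecrg4 and Gsta4 pointed in opposite directions between genotypes in the 2 kinds of member; the differences were not tested, since each genotype is 1 library. Ccn1, which encodes a matricellular protein, had a ratio of Tsc1 RPE KO over Tsc1 flox of 0.112 in members with at most 1 UMI of Edn3 and Pgf and 6.15 in members with at least 2. One barcode of Tsc1 RPE KO held 65.0% of its UMIs in the latter. With at least 5 UMIs of the pair its ratio was 9.01.

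Ecrg4, which encodes a secreted peptide precursor, had ratios of 0.344 and 7.84 in the same sets, with 51 UMIs in Tsc1 RPE KO and 10 in Tsc1 flox behind the second. Gsta4, which encodes a glutathione transferase, had ratios of 0.337 and 7.30, and 3.15 with at least 5 UMIs of Edn3 and Pgf. All 3 genes were picked out by this opposition from the named genes, and a pattern so chosen has no independent support here.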

How the results depend on the processing

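Of the single genes, 921 values under the alternatives planned at the outset moved by less than the counting interval, 49 moved more and 0 changed direction. Under alternatives added later, 142 moved by less, 58 moved more and 14 changed direction. A further 16 gave no value because both sets were at or under the floor.

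The number of members was 49 in Tsc1 flox with a marker sum of at least 5, 38 and 26 after thinning to 1000 UMIs, and 28 and 21 with at most 1 UMI of Edn3 and Pgf. With 20 UMIs as the measurement limit, the genotype ratios gave 241 genes higher and 247 lower of 5879 measured. Members against other collagen I cells then gave 298 and 258 of 9487, and members against Edn3 Pgf cells 305 and 243 of 9401. Fmod against Pi16 cells gave 91 higher of 3865. At 1.5-fold these were 195 and 176, 356 and 428, 357 and 413, and 62 and 176. With a marker sum of at least 5, 282 of 6259 genes were lower against other collagen I cells. Against Edn3 Pgf cells 268 of 6156 were lower, and 51 of 949 in Fmod against Pi16 cells. After thinning, 42 of 1164 were lower between genotypes, 327 of 5008 against other collagen I cells and 252 of 4144 against Edn3 Pgf cells. Between genotypes, 56 were lower by the mean over barcodes and 47 without the richest barcode of each gene. Scaling to the median ratio gave 38 higher in Fmod against Pi16 cells.

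With at most 1 UMI of Edn3 and Pgf, 24 genes were higher between genotypes, 477 lower against other collagen I cells and 463 against Edn3 Pgf cells. Without Fmod as well, 16 were higher and 10 lower between genotypes. Fmod against no Fmod in these members gave 47 higher. With at least 2 UMIs of the pair, 59 genes were higher and 61 lower against Edn3 Pgf cells, and with at least 5, 42 and 61; the latter limit gave 27 higher between genotypes.

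Genotype ratios that changed direction were Gsta4 at 0.337 (at most 1 UMI of Edn3 and Pgf) and 0.263 (also without Fmod), where Col12a1 was 1.26, Cpxm1 1.22 and Crispld2 1.98. With at least 2 UMIs, Postn was 0.171, Col12a1 1.02 and Cpxm1 1.02. With at least 5, Smoc2 was 0.559, Cdkn1a 0.801, Dpep1 0.901, Postn 0.200, Tppp3 0.360 and Fbln2 0.150, several of them on fewer than 50 UMIs. The cause was not tested. No paired analysis was possible because each genotype has 1 library, and for the same reason no replicate could be left out. Depth limits genes of few UMIs, such as Tsc1, whose difference was not detectable here.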
